A study of Homo sapiens with 14 samples.

Results

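MDA-MB-231, a human triple-negative breast cancer line, gave 5 of the 14 bulk RNA sequencing libraries of the study, in 2 sets. The siRNA set holds 3 libraries, 1 from cells with control siRNA and 2 from cells with siRNA against ADAR, labelled as replicates 1 and 2. An siRNA is a small RNA duplex used to have a chosen transcript cut. The vector set holds 2 libraries, 1 from cells that overexpressed NOP14 and 1 from control cells named PCDH. The 5 libraries were chosen by their labels, as the columns of this line that carry an siRNA name against those that carry a NOP14 or PCDH name. The other 9 libraries, 1 with control siRNA and 2 with ADAR siRNA from each of BT-549 (breast), NCI-H1395 (lung) and AGS (stomach), are given as context. Each of the 14 libraries was made from RNA captured on beads by its poly(A) tail, per the labels' protocols. The labels do not say whether libraries came from separate cultures or when each set was made, so p-values measure only the spread between these libraries. Transfection with siRNA, the vector, the ADAR and NOP14 treatments, culture and library making differ together between the sets and cannot be told apart. The levels of ADAR and NOP14 themselves are not described here.

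Most messenger RNAs end in a poly(A) tail, the feature that bead capture uses. Several abundant RNAs lack one. The 7SL RNA of the signal recognition particle, the RNA of RNase MRP, the spliceosomal small nuclear RNAs (snRNAs), the small nucleolar RNAs (snoRNAs) that guide the modification of ribosomal RNA, the small Cajal body RNAs (scaRNAs), the Y and vault RNAs and the ribosomal RNAs are folded, mostly short, and end without such a tail. Messenger RNAs of the replication-dependent histones, made in S phase, end in a stem-loop in its place, whereas most replacement histones have polyadenylated messages. The message of one of these, H2AX, is made in both forms. RNAs of the mitochondrial genome are cut from long precursors, mostly at the transfer RNAs (tRNAs) between them, and most of the mitochondrial messages then receive short tails. The long noncoding RNAs MALAT1, NEAT1 and KCNQ1OT1 stay in the nucleus.

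Total counts were 19140293, 13338338 and 16480932 in the siRNA libraries and 24447033 and 27828376 in the vector libraries, and genes with a count numbered 28203 to 29524 in the siRNA libraries against 25891 and 26676 in the vector libraries. Values below are counts per 1000000 of the library total (CPM), in the order control siRNA, ADAR siRNA 1, ADAR siRNA 2 for the siRNA libraries and NOP14, PCDH for the vector libraries, and a log2 fold change is siRNA over vector with its standard error. Markers of the line were present in both sets, with a summed level of 6538, 5729 and 6066 CPM in the siRNA libraries and 5936 and 6003 CPM in the vector libraries over 10 genes such as VIM and CD44. Markers of lung, immune cells, BT-549 and stomach stayed at or under 19.5 CPM in sum in each of the 5 libraries. No lung or stomach marker passed 2.35 CPM in any library of the other lines. Low sums of these markers thus do not tell MDA-MB-231 from the lung and stomach lines. VIM, at 3.55 to 2826 CPM in the other lines, and CD44, at 24.6 to 1074 CPM there, do not set MDA-MB-231 apart either. The 11 epithelial and luminal markers, listed beforehand as low or absent, summed to 2311, 1907 and 2330 CPM in the siRNA libraries. Their sum was 1376 and 1336 CPM in the vector libraries. The name of the line thus rests on the labels. Of 18039 genes that passed the count filter, edgeR's quasi-likelihood test called 8161 (45.2%) at an adjusted p under 0.05, 4186 higher (23.2%) and 3975 lower (22%) in the siRNA libraries. Among 13014 protein-coding genes outside the RNA classes, 2103 were higher (16.2%) and 3627 lower (27.9%). These shares are the background for each count below. The median log2 fold change was 0.03 over all genes tested and -0.13 over the protein-coding genes outside the RNA classes. The number of calls depended on the vector pair: without the NOP14 library 1691 genes were higher and 1926 lower, and without the PCDH library 1646 were higher and 1936 lower. An exact permutation test of 3 against 2 libraries cannot go below a two-sided p of 0.2, so summed levels are given without a p. Sets that do not overlap are likewise a description, as 3 against 2 libraries can part by chance. Some genes were named by their smallest p, and the share of all genes tested without overlap is not given here.

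Several of the RNAs that parted the sets are shown here by sequence, as examples of folded RNAs without a poly(A) tail. Each sequence is the GENCODE 29 transcript (GRCh38) of the counted gene, 5′ to 3′, with its longest run of A in capitals. RMRP is the RNA of RNase MRP (chr9:35657754-35658017, minus strand). RNU4-1 is a U4 snRNA (chr12:120293097-120293237, minus strand) and SCARNA21 a scaRNA (chr17:7906122-7906260, plus strand). VTRNA1-3 is a vault RNA (chr5:140726158-140726246, plus strand).
RMRP: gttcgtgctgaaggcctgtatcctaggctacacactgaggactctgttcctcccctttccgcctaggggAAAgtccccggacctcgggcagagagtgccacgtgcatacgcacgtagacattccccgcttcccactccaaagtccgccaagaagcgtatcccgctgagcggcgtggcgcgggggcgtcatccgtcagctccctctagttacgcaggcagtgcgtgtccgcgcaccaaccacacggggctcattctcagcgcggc
RNU4-1: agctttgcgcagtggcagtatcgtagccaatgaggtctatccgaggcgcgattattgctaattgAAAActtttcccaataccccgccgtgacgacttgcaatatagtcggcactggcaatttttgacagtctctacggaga
SCARNA21: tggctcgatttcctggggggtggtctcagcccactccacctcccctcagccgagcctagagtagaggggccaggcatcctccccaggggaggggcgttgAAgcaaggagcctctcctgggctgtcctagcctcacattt
VTRNA1-3: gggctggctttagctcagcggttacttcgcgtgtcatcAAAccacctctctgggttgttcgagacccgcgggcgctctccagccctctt

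The longest run of A was 4 bases in RNU4-1, 3 bases in RMRP and VTRNA1-3, and 2 bases in SCARNA21. Over the tested members with a transcript sequence, the longest run did not pass 5 bases in 18 snRNAs, 23 C/D box snoRNAs and 26 H/ACA box snoRNAs, and 4 bases in 6 scaRNAs. Runs in messages are not given here, and a link between run length and the gap was not tested.

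RNAs without a poly(A) tail made up 3.33%, 3.12% and 3.65% of the counts of the siRNA libraries, against 0.0176% and 0.0170% in the vector libraries, when structured RNAs, their pseudogenes and the replication-dependent histones were summed over 2175 genes. The highest of the 9 libraries of the other lines, which also had siRNA, reached 0.0727%. The 3 MDA-MB-231 siRNA libraries stood apart from the other 11 libraries of the series, not only from the vector pair. The plot of summed levels by class sets these RNAs beside the other classes.

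**Figure D1:**
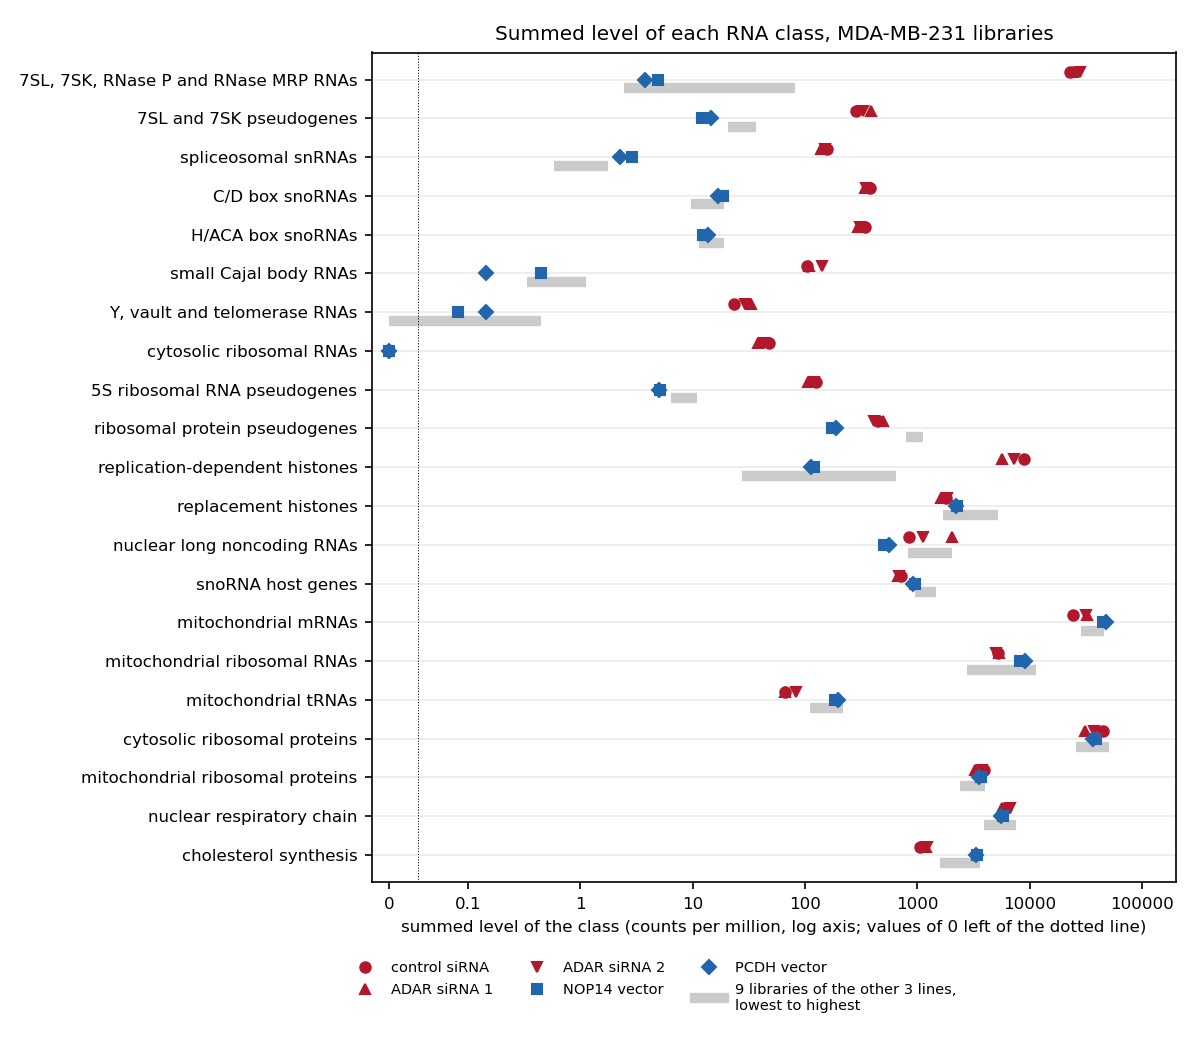
Summed CPM of 21 RNA classes (log axis) in each MDA-MB-231 library, siRNA libraries in red above vector libraries in blue, with the range of the 9 libraries of the other lines as a grey bar. The classes of folded RNAs and the replication-dependent histones lie far to the right in the 3 siRNA libraries, mitochondrial RNAs and cholesterol synthesis lie to the left, and ribosomal proteins overlap.

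RN7SL1, the RNA scaffold of the particle that brings ribosomes to the endoplasmic reticulum, carried most of the gap. It had 19727, 21571 and 24800.2 CPM in the siRNA libraries, against 4.87 and 3.52 CPM in the vector libraries (log2 fold change 12.32 ± 0.30, edgeR adjusted p = 2.44e-06). The other lines had 2.37 to 54.7 CPM. In bulk RNA, a higher level in each cell and a larger share of cells with the RNA cannot be told apart. It alone made up 81.0%, 84.5% and 84.8% of the structured RNA counts in the siRNA libraries, against 8.64% and 6.26% in the vector libraries. RMRP, the RNA of the endonuclease that cuts the ribosomal RNA precursor, had 2898, 2211 and 2617 CPM in the siRNA libraries, against 0.0409 and 0.216 CPM in the vector libraries, a pooled ratio of 19538 with a 95% counting interval of 9483 to 48598 (edgeR adjusted p = 5.22e-06). RN7SL3, a close copy of RN7SL1, had 256, 297 and 356 CPM in the siRNA libraries, against 0.0409 and 0 CPM in the vector libraries. Its vector level rests on 1 count, so its ratio of 15712 has a counting interval of 2819 to 620616, and reads of the copies may have been split between them. RN7SL2, RN7SK and RPPH1 had 0 counts in each of the 5 libraries and could not be compared. No siRNA library overlapped a vector library for any of the 3 counted genes, and each of the 3 was called higher. Among 970 annotated pseudogenes of 7SL and 7SK the summed level was 285, 389 and 331 CPM in the siRNA libraries, against 12.1 and 14.4 CPM in the vector libraries, with no overlap. RN7SL4P alone had 203, 259.9 and 244 CPM in the siRNA libraries, against 0.0409 and 0 CPM in the vector libraries, on 1 vector count. Of the 34 pseudogenes that passed the filter 27 were higher and the other 7 were not called. These pseudogenes share sequence with their parent RNAs, so some of their reads may come from the parents.

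Members of these classes passed the count filter through the siRNA libraries, where their counts lie. For these classes, the counts of calls above and below describe the members that passed and are no support for a difference of the class. The vector level of many members rests on fewer than 10 counts, and intervals of ratios cover counting error only.

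The spliceosomal snRNAs, which pair with the splice sites and with each other to build the spliceosome, summed to 157, 139 and 150.1 CPM in the siRNA libraries, against 2.9 and 2.26 CPM in the vector libraries. The other lines had 0.579 to 1.75 CPM. Of 48 genes 34 had a count in the 5 libraries and 19 passed the filter, each of them higher, with a median log2 fold change of 5.84 (5.73 with the 3 members at 0 in the vector pair set to a floor of 3 counts over the pair). RNU4-1, a U4 snRNA, had 24.2, 25.9 and 24.8 CPM in the siRNA libraries, against 0.0409 and 0.0719 CPM in the vector libraries, a ratio of 433 with a counting interval of 148 to 2105 on 3 vector counts. RNU4-2, its near-identical neighbour, had 22.1, 22.4 and 23.5 CPM in the siRNA libraries, against 0.164 and 0.0719 CPM in the vector libraries (log2 fold change 7.51 ± 0.29, edgeR adjusted p = 9.72e-06). RNVU1-31, a variant U1 snRNA, had 44.6, 28.6 and 34.4 CPM in the siRNA libraries, against 0.123 and 0.0719 CPM in the vector libraries (log2 fold change 8.44 ± 0.43, edgeR adjusted p = 2.86e-05). RNU5F-1, a U5 variant, had 5.49, 6.75 and 7.52 CPM in the siRNA libraries, against 0 and 0 CPM in the vector libraries. RNU4ATAC, which serves the minor spliceosome, had 3.19, 2.92 and 3.76 CPM in the siRNA libraries, against 0.123 and 0 CPM in the vector libraries, a ratio of 57.7 with a counting interval of 19.4 to 282 on 3 vector counts. The levels of RNU4-1 and RNU4-2 differed little among the siRNA libraries, while RNVU1-31 was highest with control siRNA. Reads of near-identical snRNA copies may have been split or lost in counting.

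Both kinds of snoRNA had higher summed levels. C/D box snoRNAs, which guide ribose methylation, summed to 378, 342 and 350.3 CPM in the siRNA libraries, against 18.4 and 16.7 CPM in the vector libraries. H/ACA box snoRNAs, which guide pseudouridylation, summed to 341, 294 and 308 CPM in the siRNA libraries, against 12.3 and 13.7 CPM in the vector libraries. SNORD3A, the U3 snoRNA needed to cut the ribosomal RNA precursor, had 195, 179.9 and 198 CPM in the siRNA libraries, against 0.982 and 0.467 CPM in the vector libraries (log2 fold change 8.02 ± 0.27, edgeR adjusted p = 6.28e-06). SNORD17 had 67.1, 62.8 and 61.5 CPM in the siRNA libraries, against 1.8 and 1.9 CPM in the vector libraries (log2 fold change 5.07 ± 0.17, edgeR adjusted p = 5.91e-06). SNORD15B had 52.9, 35.2 and 36.7 CPM in the siRNA libraries, against 0.409 and 0.575 CPM in the vector libraries (log2 fold change 6.35 ± 0.35, edgeR adjusted p = 4.42e-05). SNORA73B, an H/ACA snoRNA that takes part in cutting the ribosomal RNA precursor, had 218, 165 and 189 CPM in the siRNA libraries, against 2 and 2.44 CPM in the vector libraries (log2 fold change 6.38 ± 0.24, edgeR adjusted p = 9.72e-06). SNORA23 had 25.8, 26.1 and 24.8 CPM in the siRNA libraries, against 0.0818 and 0.108 CPM in the vector libraries (log2 fold change 7.94 ± 0.26, edgeR adjusted p = 5.91e-06). SNORA53 had 26.3, 25.1 and 27.1 CPM in the siRNA libraries, against 0.45 and 0.323 CPM in the vector libraries (log2 fold change 6.04 ± 0.23, edgeR adjusted p = 9.72e-06). In each of these every siRNA library lay above both vector libraries. Of 311 C/D box genes 74 had a count and 23 passed the filter, with 12 higher and 3 lower (median log2 fold change 1.88). Of 214 H/ACA genes 90 had a count and 26 passed, with 21 higher and 5 not called (median 2.94), a count that was 13 without the NOP14 library. Most snoRNAs lie in introns of host genes, so reads of unspliced host RNA are counted with them.

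The scaRNAs, which guide modification of the snRNAs in Cajal bodies, summed to 105, 108 and 142 CPM in the siRNA libraries, against 0.45 and 0.144 CPM in the vector libraries, and SCARNA21 carried most of it. SCARNA21 had 92.5, 92.7 and 128 CPM in the siRNA libraries, against 0.0818 and 0 CPM in the vector libraries, a ratio of 2733 with a counting interval of 756 to 22572 on 2 vector counts. SCARNA7 had 8.05, 9.3 and 7.89 CPM in the siRNA libraries, against 0 and 0 CPM in the vector libraries, at least 145-fold higher against the floor of 3 counts over the vector pair. Of 25 scaRNA genes 14 had a count and 6 passed the filter, each of them higher, a number that was 4 to 6 when each library was left out. The Y RNAs, bound by the Ro protein, and the vault RNAs were at 0 or near it in the vector pair. RNY3 had 6.79, 11.5 and 7.1 CPM in the siRNA libraries, against 0 and 0 CPM in the vector libraries, at least 143-fold higher against the same floor. VTRNA1-3 had 9.4, 9.75 and 10.3 CPM in the siRNA libraries, against 0 and 0 CPM in the vector libraries, at least 171-fold higher against it. RNY1 had 4.34, 6.07 and 6.07 CPM in the siRNA libraries, against 0 and 0 CPM in the vector libraries. VTRNA1-2 had 1.99, 3.22 and 3.58 CPM in the siRNA libraries, against 0 and 0.144 CPM in the vector libraries (log2 fold change 5.12 ± 0.73, edgeR adjusted p = 0.00179). TERC, the template RNA of telomerase, had 0.209, 0.15 and 0.364 CPM in the siRNA libraries, against 0 and 0 CPM in the vector libraries, and did not pass the filter. The summed level of Y, vault and telomerase RNAs was at most 0.451 CPM in the other lines.

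Cytosolic ribosomal RNA itself took few counts. RNA5S9, a copy of 5S ribosomal RNA, had 42.5, 32.9 and 37.1 CPM in the siRNA libraries, against 0 and 0 CPM in the vector libraries, at least 664-fold higher against the floor. RNA5-8SN3, a copy of the other small ribosomal RNA of the large subunit, had 5.38, 5.4 and 5.76 CPM in the siRNA libraries, against 0 and 0 CPM in the vector libraries. Both had 0 counts in the 9 libraries of the other lines. Of 20 annotated ribosomal RNA genes 3 had a count in the 5 libraries, and reads of the repeated copies may have been left out in counting. Pseudogenes of 5S RNA summed to 124, 106 and 119.7 CPM in the siRNA libraries, against 5.15 and 5.03 CPM in the vector libraries. RNA5SP429 had 37, 29.2 and 36.3 CPM in the siRNA libraries, against 0 and 0 CPM in the vector libraries. RNA5SP149 had 31.5, 26.3 and 31.4 CPM in the siRNA libraries, against 0 and 0 CPM in the vector libraries. Of the 14 that passed the filter 11 were higher and 1 lower. Reads of 5S RNA itself may be counted among those of its pseudogenes.

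The replication-dependent histones, which package newly made DNA, were the protein-coding group that differed most. The summed level of their 69 genes was 8928, 5669 and 7242 CPM in the siRNA libraries, against 119 and 113 CPM in the vector libraries, and the other lines had 27.5 to 643 CPM. Of the 69, 54 had a count in the 5 libraries and 42 passed the filter, each of them higher (median log2 fold change 7.76, or 7.11 with the 6 members at 0 in the vector pair set to the floor). Of the 69, 39 averaged at least 1 CPM in the siRNA libraries, against 12 in the vector libraries. A member could thus pass the filter through the siRNA libraries alone, and the count of calls is a description only. Control siRNA had the highest sum of the 3 siRNA libraries and ADAR siRNA 1 the lowest. H1-4, a linker histone, had 1610.2, 1013 and 1368 CPM in the siRNA libraries, against 1.84 and 2.66 CPM in the vector libraries (log2 fold change 9.17 ± 0.38, edgeR adjusted p = 1.26e-05). H3C2, a core histone, had 728, 405 and 565 CPM in the siRNA libraries, against 1.06 and 1.62 CPM in the vector libraries (log2 fold change 8.68 ± 0.43, edgeR adjusted p = 2.47e-05). H3C3, a copy that codes for the same protein, had 659, 441 and 564 CPM in the siRNA libraries, against 1.19 and 1.08 CPM in the vector libraries (log2 fold change 8.91 ± 0.33, edgeR adjusted p = 8.92e-06). H2BC3 had 238, 172 and 203 CPM in the siRNA libraries, against 0.123 and 0.108 CPM in the vector libraries (log2 fold change 10.70 ± 0.35, edgeR adjusted p = 5.91e-06). H2AC11 had 452, 276 and 374 CPM in the siRNA libraries, against 0.818 and 1.01 CPM in the vector libraries (log2 fold change 8.61 ± 0.37, edgeR adjusted p = 1.43e-05). In each of them the siRNA libraries lay far above the vector pair, with no overlap.

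**Figure D2:**
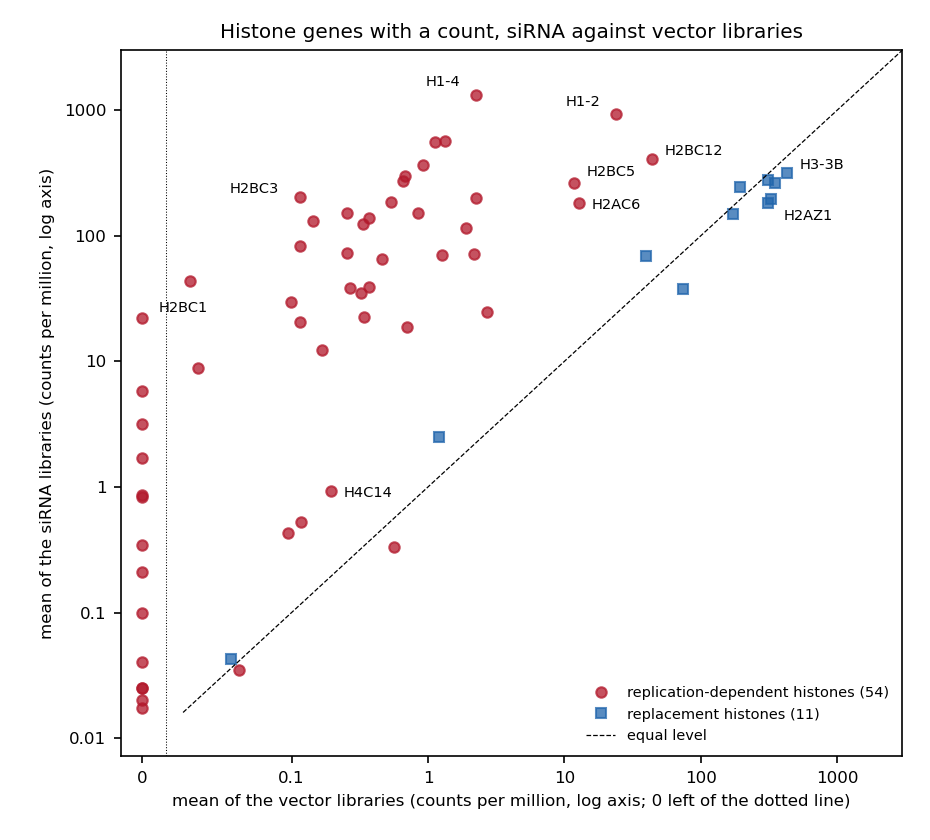
Mean level of each histone gene with a count (CPM, log axes), vector libraries on the horizontal and siRNA libraries on the vertical axis, with replication-dependent genes in red and replacement genes in blue. The 42 tested replication-dependent genes lie above the line of equal level, and the 10 tested replacement genes lie within 1.01 on the log2 scale of it.

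The gap differed between histone families and genes. The ratio of summed means was 260 for H3 genes, 96.7 for H4, 87.6 for H2A, 86.4 for H1 and 27.8 for H2B. Few genes held most of the vector signal: H2BC12, H1-2, H2AC6 and H2BC5 made up 79.3% of the vector sum and 24.6% of the siRNA sum. H2BC12 had 566, 289 and 379 CPM in the siRNA libraries, against 45.7 and 41.9 CPM in the vector libraries (log2 fold change 3.21 ± 0.33, edgeR adjusted p = 0.000543). H1-2, a linker histone, had 1097, 747 and 944 CPM in the siRNA libraries, against 26.9 and 20.9 CPM in the vector libraries (log2 fold change 5.25 ± 0.27, edgeR adjusted p = 3.18e-05). H2AC6 had 219.6, 156 and 174 CPM in the siRNA libraries, against 12.1 and 13.5 CPM in the vector libraries (log2 fold change 3.81 ± 0.22, edgeR adjusted p = 6.13e-05). H2BC5 had 319.9, 221 and 256 CPM in the siRNA libraries, against 11.3 and 12.2 CPM in the vector libraries (log2 fold change 4.47 ± 0.24, edgeR adjusted p = 3.65e-05). At the other end, 14 members with siRNA counts had 0 counts in the vector pair. H2BC1, a histone of the testis, had 6.11, 29.8 and 30.3 CPM in the siRNA libraries, against 0 and 0 CPM in the vector libraries, at least 361-fold higher against the floor, and its control siRNA level was well under the ADAR siRNA pair.

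The stem-loop of these messages is shown for 4 genes whose gaps differed in size, as 30 bases of a GENCODE 29 transcript (GRCh38), 5′ to 3′, with the match to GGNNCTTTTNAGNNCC in capitals. The match is followed by 1128 bases in the H2AC6 transcript, 39 in H2BC5, 1761 in H2AC11 and 1479 in H2BC18. The stretch shown is thus not the end of these annotated transcripts. H2AC6 (chr6:26124145-26139116, plus strand), H2BC5 (chr6:26158122-26171349, plus strand), H2AC11 (chr6:27133043-27133535, plus strand) and H2BC18 (chr1:149782689-149812373, minus strand) are given with the span of the counted gene, which need not match that of the transcript. H2BC18 had 373, 246 and 285 CPM in the siRNA libraries, against 0.818 and 0.539 CPM in the vector libraries (log2 fold change 8.77 ± 0.36, edgeR adjusted p = 1.26e-05).
H2AC6: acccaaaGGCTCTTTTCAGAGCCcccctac
H2BC5: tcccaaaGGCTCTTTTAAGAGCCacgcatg
H2AC11: aaccaacGGCTCTTTTCAGGGCCacccacg
H2BC18: ccccaaaGGCTCTTTTCAGAGCCacttcag

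The motif stood in 41 of 94 annotated transcripts of the replication-dependent histones (43.6%) and in 0.0494% of the 83053 other protein-coding transcripts, while on the opposite strand it stood in 1 of the 94 and 0.0626% of the others. Many of the annotated histone transcripts end at the stop codon, so a missing match says only that these letters are not in the sequence. The polyadenylation signal AATAAA stood in the last 50 bases of a transcript of 15 of the histone genes with a count, and 35 had transcripts without it. H2AC6, H2BC5, H2AC11 and H2BC18 were among the 15. The tested members with the signal had a median log2 fold change of 5.77 (13 genes, 2.24 to 8.77), and those with transcripts but no signal 8.16 (25 genes, 3.21 to 11.75). The signal stood in the last 50 bases of 35.5% of the other protein-coding transcripts. This split was made after the values were seen and was not tested.

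Most replacement histones were lower or not called. Their sum was 1781, 1614 and 1826 CPM in the siRNA libraries, against 2236 and 2204 CPM in the vector libraries, and of 10 tested genes 1 was higher and 5 lower, with a median log2 fold change of -0.35. H2AZ1, the variant found at promoters, had 199, 175 and 216 CPM in the siRNA libraries, against 334 and 322 CPM in the vector libraries (log2 fold change -0.77 ± 0.14, edgeR adjusted p = 0.00417). H3-3B, which codes for a replacement form of histone H3, had 353, 281 and 321 CPM in the siRNA libraries, against 431 and 434 CPM in the vector libraries (log2 fold change -0.47 ± 0.15, edgeR adjusted p = 0.036). H2AX, the variant phosphorylated at DNA breaks, had 297, 197 and 238 CPM in the siRNA libraries, against 202 and 190.1 CPM in the vector libraries, with overlapping sets. Among factors that make or process histone messages, calls went both ways, with 2 higher and 2 lower of 14. SLBP, which binds the stem-loop, had 176, 157 and 185 CPM in the siRNA libraries, against 115 and 112 CPM in the vector libraries (log2 fold change 0.57 ± 0.13, edgeR adjusted p = 0.011). NPAT, which drives histone gene transcription in S phase, had 39.2, 44.1 and 35.6 CPM in the siRNA libraries, against 52.5 and 57.1 CPM in the vector libraries (log2 fold change -0.51 ± 0.12, edgeR adjusted p = 0.0135). LSM11, a part of the U7 particle that cuts the message, had 10.6, 10.3 and 12.6 CPM in the siRNA libraries, against 16.7 and 17.7 CPM in the vector libraries (log2 fold change -0.65 ± 0.16, edgeR adjusted p = 0.0134). Genes of DNA replication, which like these histones are expressed in S phase, had 2 higher and 6 lower of 38 (median -0.13), and mitosis genes 3 higher and 8 lower of 25. RRM2 had 347, 261 and 261 CPM in the siRNA libraries, against 272 and 276 CPM in the vector libraries, with overlapping sets. MCM7 had 295, 155 and 183 CPM in the siRNA libraries, against 319 and 319 CPM in the vector libraries, and was not called.

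Among proteins that bind the structured RNAs, most calls were lower, as among other protein-coding genes. Of 32 tested partners 3 were higher (9.4%) and 12 lower (37.5%), against 16.2% and 27.9% of protein-coding genes outside the RNA classes. The median log2 fold change was -0.12. Their summed levels overlapped, at 2733, 2437 and 2613 CPM in the siRNA libraries, against 2617.5 and 2584 CPM in the vector libraries. SRP14, which binds the Alu end of 7SL, had 298, 277 and 303 CPM in the siRNA libraries, against 169 and 168 CPM in the vector libraries (log2 fold change 0.76 ± 0.12, edgeR adjusted p = 0.00279). SRP9, its partner on the same domain, had 120.1, 137 and 151 CPM in the siRNA libraries, against 181 and 193 CPM in the vector libraries (log2 fold change -0.50 ± 0.12, edgeR adjusted p = 0.0123). SRP68 had 169.7, 154 and 166 CPM in the siRNA libraries, against 162 and 156 CPM in the vector libraries. SRP72 had 222, 219 and 227 CPM in the siRNA libraries, against 227 and 223 CPM in the vector libraries, and the sets overlapped for both. GAR1, a core protein of the H/ACA particle, had 12.3, 14.4 and 11.6 CPM in the siRNA libraries, against 49.8 and 48 CPM in the vector libraries (log2 fold change -1.98 ± 0.13, edgeR adjusted p = 9.22e-05). MEPCE, the enzyme that caps 7SK, had 4.75, 3.82 and 4 CPM in the siRNA libraries, against 13.4 and 11.2 CPM in the vector libraries (log2 fold change -1.57 ± 0.21, edgeR adjusted p = 0.00136). The snoRNA host genes, whose spliced exons are polyadenylated, had a sum of 711, 678 and 680.3 CPM in the siRNA libraries, against 942 and 909 CPM in the vector libraries. Of 30 tested hosts 6 were higher and 11 lower, and the number lower was 5 without the NOP14 library and 7 without the PCDH library. SNHG32 had 1.99, 1.95 and 2.61 CPM in the siRNA libraries, against 41 and 37.8 CPM in the vector libraries (log2 fold change -4.20 ± 0.18, edgeR adjusted p = 1.32e-05). SNHG1 had 57.3, 44.8 and 51.3 CPM in the siRNA libraries, against 125 and 127 CPM in the vector libraries (log2 fold change -1.33 ± 0.15, edgeR adjusted p = 0.000798). SNHG17 had 79.2, 86.4 and 78.9 CPM in the siRNA libraries, against 44.4 and 41.7 CPM in the vector libraries (log2 fold change 0.88 ± 0.11, edgeR adjusted p = 0.00109). Factors that trim or adenylate RNA ends had 1 higher and 5 lower of 24.

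Among long noncoding RNAs of the nucleus, levels parted by gene. MALAT1, a nuclear speckle RNA whose end is a triple helix formed by cleavage, had 353, 837 and 566 CPM in the siRNA libraries, against 4.46 and 4.53 CPM in the vector libraries (log2 fold change 6.97 ± 0.39, edgeR adjusted p = 4.75e-05), and the other lines had 8.17 to 27.4 CPM. KCNQ1OT1, the antisense RNA of an imprinted domain, had 83, 149 and 82.5 CPM in the siRNA libraries, against 6.34 and 5.35 CPM in the vector libraries (log2 fold change 4.11 ± 0.29, edgeR adjusted p = 0.000149). LINC-PINT had 109.8, 196 and 93.9 CPM in the siRNA libraries, against 13.4 and 11.2 CPM in the vector libraries (log2 fold change 3.38 ± 0.31, edgeR adjusted p = 0.0004). ADAR siRNA 1 was the highest library for all 3 of these, and the vector pair lay below the siRNA libraries in each. NEAT1, the scaffold of paraspeckles, had 135, 552 and 188 CPM in the siRNA libraries, against 187 and 222 CPM in the vector libraries with overlapping sets, and its fitted change of 0.44 became -0.31 without ADAR siRNA 1. TUG1 had 81.5, 109.5 and 98.4 CPM in the siRNA libraries, against 187 and 191 CPM in the vector libraries (log2 fold change -1.01 ± 0.12, edgeR adjusted p = 0.000866). OIP5-AS1 had 43, 60.2 and 46.5 CPM in the siRNA libraries, against 86.6 and 98.2 CPM in the vector libraries (log2 fold change -0.93 ± 0.14, edgeR adjusted p = 0.00204). Of 9 tested members 6 were higher and 2 lower, and without either vector library 4 were higher.

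Antisense, sense intronic and intergenic long noncoding genes had higher sums in the siRNA libraries than in the vector pair. Genes with few counts could pass the filter through the siRNA libraries alone. The counts of calls in this paragraph thus describe the genes that passed and are no support for a difference of the class. Antisense genes summed to 3316, 4792 and 3476 CPM in the siRNA libraries, against 2489.7 and 2545 CPM in the vector libraries, with 506 higher and 56 lower of 1302 tested. Sense intronic genes summed to 342, 660.0 and 370.5 CPM in the siRNA libraries, against 247 and 246 CPM in the vector libraries, with 76 higher and 14 lower of 182. Intergenic long noncoding genes summed to 3923, 6474 and 4606 CPM in the siRNA libraries, against 3460.5 and 3538 CPM in the vector libraries, with 303 higher and 64 lower of 903. ADAR siRNA 1, the library with the lowest total, was the highest of the 5 in these 3 classes. The other lines had 2407 to 4369 CPM for antisense, 279 to 384 CPM for sense intronic and 3377 to 7935 CPM for intergenic genes. Control siRNA and ADAR siRNA 2 lay inside each of these ranges, unlike for the folded RNAs. Genes annotated as processed transcripts summed to 1592, 2104 and 1614 CPM in the siRNA libraries, against 1522 and 1557 CPM in the vector libraries, with 53 higher and 22 lower of 191. The sum of bidirectional promoter long noncoding genes was lower, at 197, 273 and 244 CPM in the siRNA libraries, against 301 and 303 CPM in the vector libraries, while 9 of the 31 tested were higher and 1 lower. Without strand information in the sources used here, reads of an antisense or intronic gene cannot be told from those of the gene that overlaps it. One sense intronic gene on chromosome 15, ENSG00000260035, had 20.6, 25.3 and 20.1 CPM in the siRNA libraries, against 0 and 0 CPM in the vector libraries, at least 378-fold higher against the floor.

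RNAs of the mitochondrial genome went the other way. The 13 mitochondrial messages, which code for core subunits of the respiratory chain, summed to 24228, 31966 and 31577 CPM in the siRNA libraries, against 44737 and 47659 CPM in the vector libraries. The other lines had 28796 to 45421 CPM, so only control siRNA lay below them and only PCDH above. Of the 13, 10 were lower and 1 higher (median log2 fold change -0.64), and the number lower was 6 without the NOP14 library and 5 without the PCDH library. MT-ND3, a subunit of complex I, had 135, 169.7 and 166 CPM in the siRNA libraries, against 739.6 and 727 CPM in the vector libraries (log2 fold change -2.27 ± 0.12, edgeR adjusted p = 3.18e-05). MT-ATP6, a subunit of the ATP synthase, had 1407, 2033 and 2036 CPM in the siRNA libraries, against 5172 and 5512 CPM in the vector libraries (log2 fold change -1.59 ± 0.16, edgeR adjusted p = 0.000532). MT-CO3, of complex IV, had 1431, 1707 and 1769.6 CPM in the siRNA libraries, against 4399.5 and 4575 CPM in the vector libraries (log2 fold change -1.50 ± 0.13, edgeR adjusted p = 0.000309). MT-ND2 had 1767, 2047 and 1972 CPM in the siRNA libraries, against 4421 and 4750.2 CPM in the vector libraries (log2 fold change -1.29 ± 0.12, edgeR adjusted p = 0.000397). The other lines had 1414 to 3208 CPM of MT-ND2, a range that held the siRNA libraries and lay below the vector pair. For MT-ND3 they had 346 to 708 CPM, above the siRNA libraries and below the vector pair. MT-CO1 had 5408, 7248 and 7949 CPM in the siRNA libraries, against 8961 and 9769 CPM in the vector libraries (log2 fold change -0.49 ± 0.17, edgeR adjusted p = 0.0436). MT-ND5 had 2741, 4026 and 3358 CPM in the siRNA libraries, against 2727 and 3081 CPM in the vector libraries. MT-ND6, the message of the opposite strand, had 805, 1156 and 981 CPM in the siRNA libraries, against 795 and 874 CPM in the vector libraries, and the sets overlapped for both. MT-ATP8 was the exception, with 666, 1020.1 and 879 CPM in the siRNA libraries, against 545 and 557 CPM in the vector libraries (log2 fold change 0.59 ± 0.16, edgeR adjusted p = 0.0188), and the other lines had 51.8 to 103 CPM. It overlaps MT-ATP6 on the same message, and the sources used here do not give how reads of the overlap were counted. The ribosomal RNA MT-RNR2 had 4431, 4414 and 4200.0 CPM in the siRNA libraries, against 6930.4 and 7686 CPM in the vector libraries (log2 fold change -0.78 ± 0.13, edgeR adjusted p = 0.003). MT-RNR1 had 830.0, 898 and 846 CPM in the siRNA libraries, against 1265 and 1302 CPM in the vector libraries (log2 fold change -0.62 ± 0.11, edgeR adjusted p = 0.00406). The other lines had 412 to 878 CPM of MT-RNR1, below the vector pair. For the sum of both ribosomal RNAs they had 2749 to 11319 CPM, a range that held both sets.

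**Figure D3:**
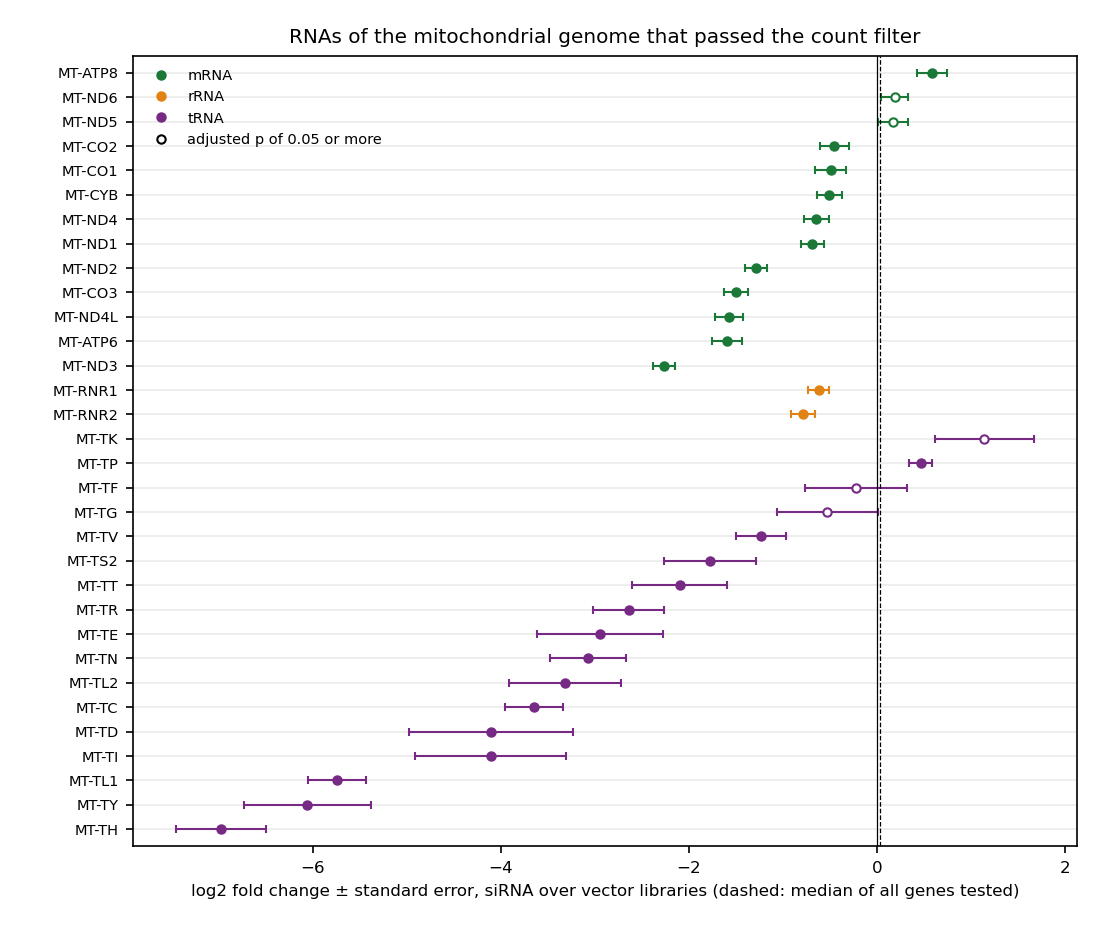
Log2 fold change, siRNA over vector libraries, with its standard error for 32 RNAs of the mitochondrial genome that passed the count filter, grouped into messages, ribosomal RNAs and tRNAs. Open points were not called and the dashed line is the median of all genes tested. Most points lie left of 0, and the called points to the right are MT-ATP8 and MT-TP.

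Most mitochondrial tRNAs were lower as well. Their sum was 66.8, 66.7 and 82.6 CPM in the siRNA libraries, against 185 and 196 CPM in the vector libraries, below the 110.4 to 217 CPM of the other lines in each siRNA library. Of 22 genes 17 passed the filter, with 13 lower and 1 higher and a median log2 fold change of -2.95, and the number lower was 10 without the NOP14 library and 6 without the PCDH library. A tRNA could pass the filter through the vector pair alone, as MT-TH had 438 counts there and 3 in the siRNA libraries. These calls and their median thus describe the members that passed and are no support for a difference of the class. MT-TL1, a leucine tRNA, had 0.313, 0.15 and 0.182 CPM in the siRNA libraries, against 11.3 and 12.8 CPM in the vector libraries (log2 fold change -5.74 ± 0.31, edgeR adjusted p = 3.93e-05), and the other lines had 8.08 to 30.7 CPM. MT-TC, the cysteine tRNA, had 5.59, 3.6 and 9.04 CPM in the siRNA libraries, against 73.4 and 77.5 CPM in the vector libraries (log2 fold change -3.65 ± 0.31, edgeR adjusted p = 0.000303). MT-TH, the histidine tRNA, had 0, 0.075 and 0.121 CPM in the siRNA libraries, against 8.1 and 8.62 CPM in the vector libraries, with 3 counts over the siRNA libraries (edgeR adjusted p = 0.000124). MT-TN, the asparagine tRNA, had 4.08, 1.42 and 5.64 CPM in the siRNA libraries, against 29.9 and 32.7 CPM in the vector libraries (log2 fold change -3.07 ± 0.40, edgeR adjusted p = 0.00135). MT-TP, the proline tRNA, did not follow, with 51.7, 52.7 and 60.1 CPM in the siRNA libraries, against 39.1 and 38.4 CPM in the vector libraries (log2 fold change 0.46 ± 0.12, edgeR adjusted p = 0.0188). The sequences of MT-TL1 (chrM:3230-3304, plus strand), MT-TC (chrM:5761-5826, minus strand) and MT-TP (chrM:15956-16023, minus strand) are shown because these tRNAs of like length differed in direction, again with the longest run of A in capitals.
MT-TL1: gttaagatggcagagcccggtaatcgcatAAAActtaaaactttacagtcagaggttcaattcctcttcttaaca
MT-TC: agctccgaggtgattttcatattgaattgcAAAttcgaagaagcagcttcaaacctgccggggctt
MT-TP: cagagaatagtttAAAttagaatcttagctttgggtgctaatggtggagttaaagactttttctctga

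They are 75, 66 and 68 bases long, and their longest run of A is 4, 3 and 3 bases. Over the 17 tested mitochondrial tRNAs the longest run was at most 6 bases, and a link between run length and direction was not tested.

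Genes for ribosomal proteins went both ways. Cytosolic ribosomal proteins summed to 44539, 31286 and 37609 CPM in the siRNA libraries, against 38542 and 36628 CPM in the vector libraries, with control siRNA the highest and ADAR siRNA 1 the lowest of the 5. Of 79 tested genes 13 were higher (16.5%) and 22 lower (27.8%), near the background of 16.2% and 27.9% among other protein-coding genes. The 13 became 20 without ADAR siRNA 1, 8 without ADAR siRNA 2, 5 without NOP14 and 2 without PCDH, and the 22 became 43 without control siRNA, 14 without ADAR siRNA 2 and 13 without NOP14. RPL19 had 1583, 1186 and 1472 CPM in the siRNA libraries, against 743 and 711 CPM in the vector libraries (log2 fold change 0.93 ± 0.18, edgeR adjusted p = 0.00532). RPL13A had 2349, 1787 and 2321 CPM in the siRNA libraries, against 1239.7 and 1207 CPM in the vector libraries (log2 fold change 0.79 ± 0.18, edgeR adjusted p = 0.0103). RPL22 had 27, 28.6 and 28.6 CPM in the siRNA libraries, against 75.1 and 74.2 CPM in the vector libraries (log2 fold change -1.45 ± 0.11, edgeR adjusted p = 0.000178). RPS29 had 55.3, 48.2 and 47.3 CPM in the siRNA libraries, against 114 and 101 CPM in the vector libraries (log2 fold change -1.13 ± 0.14, edgeR adjusted p = 0.00107). RPLP0, of the ribosomal stalk, had 2816, 1639 and 2118 CPM in the siRNA libraries, against 1998 and 1958 CPM in the vector libraries. RPL3 had 1071, 829 and 977 CPM in the siRNA libraries, against 954 and 933 CPM in the vector libraries, and the sets overlapped for both. Mitochondrial ribosomal proteins had 19 higher and 16 lower of 77, against the same background. MRPL46 had 19.4, 16.8 and 18.1 CPM in the siRNA libraries, against 4.62 and 5.97 CPM in the vector libraries (log2 fold change 1.74 ± 0.20, edgeR adjusted p = 0.000774). MRPL30 had 17.3, 18 and 16.9 CPM in the siRNA libraries, against 45.2 and 46.5 CPM in the vector libraries (log2 fold change -1.43 ± 0.12, edgeR adjusted p = 0.00028). Without NOP14 these counts were 11 and 9, and without PCDH the number higher was 8.

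**Figure D4:**
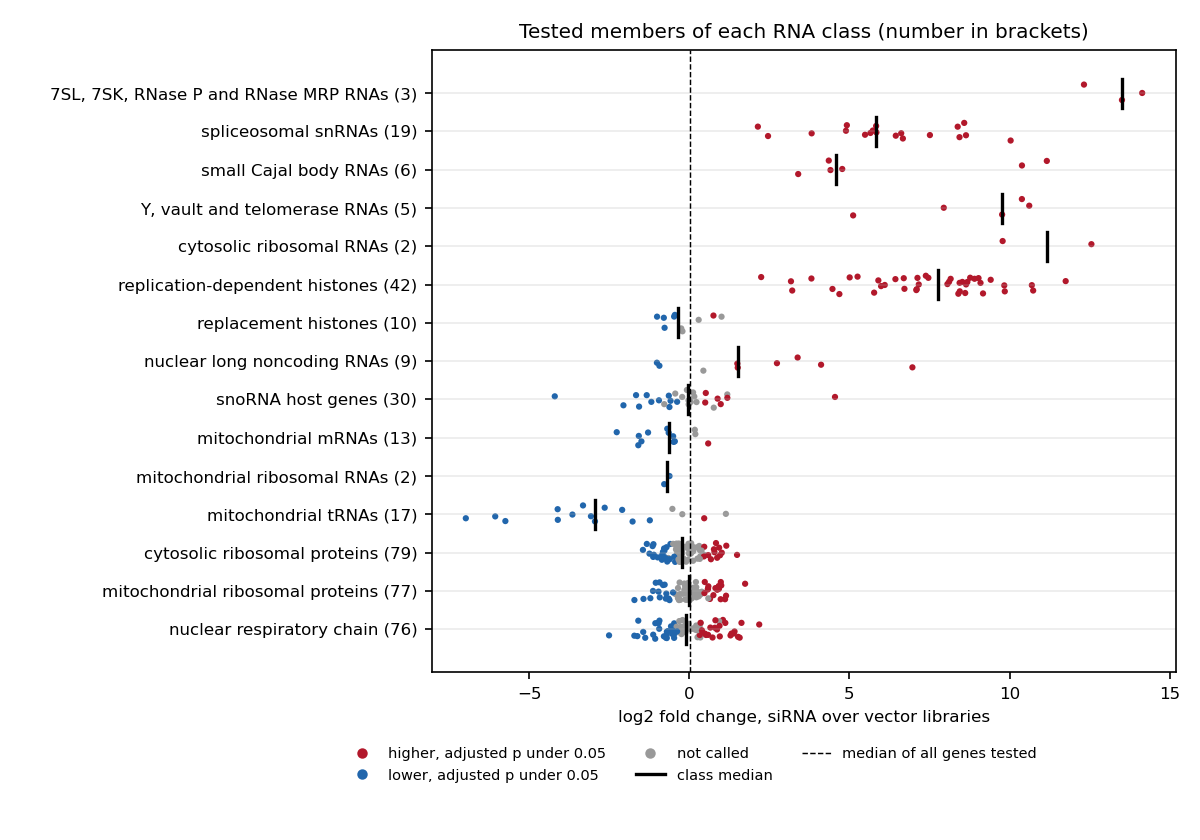
Log2 fold change, siRNA over vector libraries, of each tested member of 15 RNA classes, with called members in red (higher) and blue (lower) and the class median as a black bar. The median is 7.76 for replication-dependent histones and 5.84 for spliceosomal snRNAs, -2.95 for mitochondrial tRNAs and -0.22 for cytosolic ribosomal proteins.

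The respiratory chain subunits coded in the nucleus split in direction. Of 76 tested genes 23 were higher and 28 lower (median log2 fold change -0.12), and the sums overlapped at 6097, 5649.8 and 6647 CPM in the siRNA libraries, against 5773 and 5538 CPM in the vector libraries. COX6C had 364, 321 and 434 CPM in the siRNA libraries, against 82.1 and 78.6 CPM in the vector libraries (log2 fold change 2.18 ± 0.17, edgeR adjusted p = 0.000246). COX7C had 355, 381 and 474 CPM in the siRNA libraries, against 132 and 122 CPM in the vector libraries (log2 fold change 1.63 ± 0.16, edgeR adjusted p = 0.000433), and both are subunits of complex IV. COX8A, a subunit of the same complex, had 19.5, 15.1 and 17.7 CPM in the siRNA libraries, against 98.6 and 96 CPM in the vector libraries (log2 fold change -2.51 ± 0.16, edgeR adjusted p = 8.08e-05). ATP5F1B, the catalytic subunit of the ATP synthase, had 349.7, 336 and 404 CPM in the siRNA libraries, against 684 and 671 CPM in the vector libraries (log2 fold change -0.93 ± 0.13, edgeR adjusted p = 0.00172). SDHD, of complex II, had 21.8, 23.2 and 27.7 CPM in the siRNA libraries, against 70.1 and 72.7 CPM in the vector libraries (log2 fold change -1.59 ± 0.13, edgeR adjusted p = 0.000303). COX6C and COX7C were above the other lines in the siRNA libraries, where those lines had 47.3 to 95.9 CPM and 86.7 to 184 CPM. Without NOP14 15 were higher and 15 lower, and without PCDH 11 were higher and 15 lower.

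The summed level of ribosomal protein pseudogenes, processed copies scattered over the genome, was higher in the siRNA libraries. Their sum was 446, 495 and 412 CPM in the siRNA libraries, against 172 and 189.6 CPM in the vector libraries, and both sets lay below the 791 to 1126 CPM of the other lines. Of 1589 such genes 752 had a count and 138 passed the filter, with 86 higher and 2 lower, and the number higher was 31 without NOP14 and 41 without PCDH. Of the 138, 14 had no count in the vector pair and passed through the siRNA libraries alone. The calls thus describe the members that passed and are no support for a difference of the class. RPL13AP5 had 37.5, 25.3 and 36 CPM in the siRNA libraries, against 4.62 and 6.07 CPM in the vector libraries (log2 fold change 2.59 ± 0.26, edgeR adjusted p = 0.000477), near the 33.6 to 41.4 CPM of the other lines in the siRNA libraries. RPS23P8 had 11.3, 7.72 and 10.8 CPM in the siRNA libraries, against 0.245 and 0.18 CPM in the vector libraries (log2 fold change 5.50 ± 0.38, edgeR adjusted p = 0.000131). RPL41P1 was lower, with 5.22, 3.3 and 5.1 CPM in the siRNA libraries, against 34.5 and 35.6 CPM in the vector libraries (log2 fold change -2.96 ± 0.22, edgeR adjusted p = 0.000183). Over the annotation's processed pseudogenes the sum was 2051, 2628 and 1975 CPM in the siRNA libraries, against 666 and 717 CPM in the vector libraries, and the other lines had 2084 to 2531 CPM. The vector pair lay below the 9 libraries of the other lines for this class. Such copies share sequence with their parents, and their counts depend on how reads with several matches were treated.

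Among protein-coding genes outside the RNA classes, most genes of cholesterol synthesis were lower. The 24 genes of the list summed to 1050.3, 1195 and 1218 CPM in the siRNA libraries, against 3368 and 3301 CPM in the vector libraries, and the other lines had 1584 to 3570.4 CPM, so each siRNA library lay below the 9. Of the 24, 22 were lower and 2 were not called (median log2 fold change -1.65), and the number lower stayed at 20 to 22 when each library was left out. INSIG1, which holds the sensor of the pathway in the endoplasmic reticulum, had 22.2, 45.1 and 45.8 CPM in the siRNA libraries, against 217 and 220.0 CPM in the vector libraries (log2 fold change -2.59 ± 0.25, edgeR adjusted p = 0.000459), with control siRNA the lowest. MSMO1 had 18, 17 and 18 CPM in the siRNA libraries, against 114 and 117 CPM in the vector libraries (log2 fold change -2.75 ± 0.12, edgeR adjusted p = 1.37e-05). DHCR7, an enzyme of its final steps, had 30.6, 32.2 and 37 CPM in the siRNA libraries, against 195 and 177 CPM in the vector libraries (log2 fold change -2.52 ± 0.12, edgeR adjusted p = 2.51e-05). SREBF2, the factor that drives these genes, had 73.5, 85.9 and 85 CPM in the siRNA libraries, against 255 and 243 CPM in the vector libraries (log2 fold change -1.65 ± 0.11, edgeR adjusted p = 8.3e-05). The siRNA and vector levels of these genes did not overlap.

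**Figure D5:**
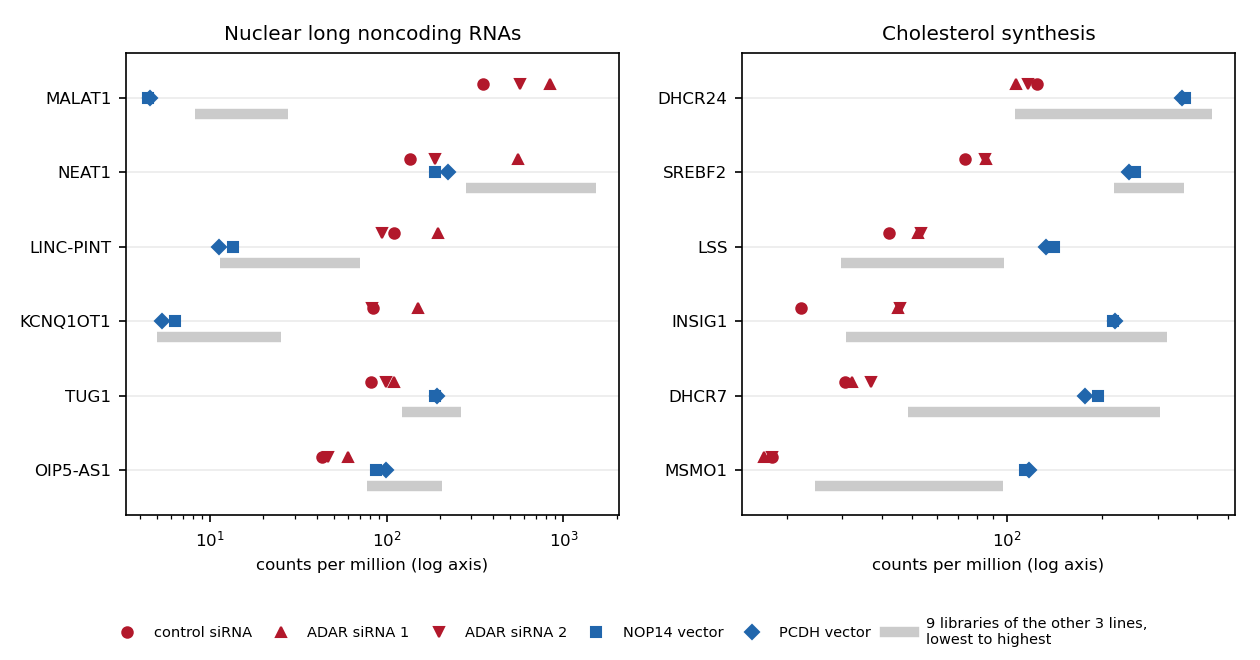
Level of the named nuclear long noncoding RNAs (left) and cholesterol genes (right) in each MDA-MB-231 library (log axis, CPM), siRNA libraries in red above vector libraries in blue, with the range of the 9 libraries of the other lines in grey. MALAT1, KCNQ1OT1 and LINC-PINT are higher and the 6 cholesterol genes shown lower in the siRNA libraries, and NEAT1 overlaps.

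Protein-coding genes with large falls are given as single genes. SAA1, an acute phase protein, had 2.51, 3.07 and 5.4 CPM in the siRNA libraries, against 123 and 119 CPM in the vector libraries (log2 fold change -5.08 ± 0.26, edgeR adjusted p = 2.98e-05). CCL2, a chemokine that draws monocytes, had 0.679, 0 and 0.0607 CPM in the siRNA libraries, against 13.9 and 18.9 CPM in the vector libraries (log2 fold change -5.86 ± 0.64, edgeR adjusted p = 0.000678). LGALS12, a galectin, had 0.418, 0 and 0 CPM in the siRNA libraries, against 28.2 and 29.6 CPM in the vector libraries (log2 fold change -7.45 ± 0.56, edgeR adjusted p = 0.000196), and OLFM4 had 0 counts in the siRNA libraries, against 11.5 and 7.4 CPM in the vector libraries. In the other lines LGALS12 had 0 counts and OLFM4 at most 0.0477 CPM. RNF144A, a ubiquitin ligase, had 0.836, 0 and 0.121 CPM in the siRNA libraries, against 12.5 and 14.8 CPM in the vector libraries (log2 fold change -5.25 ± 0.64, edgeR adjusted p = 0.00106). SORCS2 had 3.03, 0.825 and 0.364 CPM in the siRNA libraries, against 32.5 and 36.1 CPM in the vector libraries (log2 fold change -4.54 ± 0.56, edgeR adjusted p = 0.00106). CA9, a carbonic anhydrase of the cell surface, had 0.47, 1.12 and 1.09 CPM in the siRNA libraries, against 9.82 and 10.9 CPM in the vector libraries (log2 fold change -3.60 ± 0.31, edgeR adjusted p = 0.000324). TNFSF10, the death ligand TRAIL, had 6.17, 13 and 14.2 CPM in the siRNA libraries, against 105 and 121 CPM in the vector libraries (log2 fold change -3.40 ± 0.28, edgeR adjusted p = 0.00028). SAA2 had 0.47, 3.67 and 5.04 CPM in the siRNA libraries, against 33.1 and 29.4 CPM in the vector libraries (log2 fold change -3.43 ± 0.57, edgeR adjusted p = 0.00321). Of 20 tested NF-kappaB targets 8 were lower and 12 were not called, with ICAM1 at 38.1, 53.5 and 64.4 CPM in the siRNA libraries, against 116 and 112 CPM in the vector libraries (log2 fold change -1.18 ± 0.18, edgeR adjusted p = 0.00253). Interferon-stimulated genes had 3 higher and 12 lower of 34 (median log2 fold change -0.31), with IFITM3 at 68.9, 79.6 and 91 CPM in the siRNA libraries, against 163 and 157 CPM in the vector libraries (log2 fold change -1.04 ± 0.13, edgeR adjusted p = 0.00106). Both lists stand against the 16.2% higher and 27.9% lower of other protein-coding genes.

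The largest rises among protein-coding genes outside the classes were smaller than those of the folded RNAs, and these genes were picked after their values were seen. ZNF460, a zinc finger protein, had 40.8, 72.3 and 48.8 CPM in the siRNA libraries, against 3.76 and 2.34 CPM in the vector libraries (log2 fold change 4.10 ± 0.30, edgeR adjusted p = 0.000174). TXNDC5, a protein folding enzyme of the endoplasmic reticulum, had 94.1, 66.8 and 86.3 CPM in the siRNA libraries, against 10.8 and 5.39 CPM in the vector libraries (log2 fold change 3.33 ± 0.33, edgeR adjusted p = 0.000477). GPS2, a subunit of a corepressor complex, had 21.4, 21.4 and 25.8 CPM in the siRNA libraries, against 2.78 and 2.01 CPM in the vector libraries (log2 fold change 3.22 ± 0.22, edgeR adjusted p = 0.000118), and the other lines had at most 1.3 CPM. TNS1, a focal adhesion protein, had 21.6, 33.8 and 29.9 CPM in the siRNA libraries, against 3.11 and 3.45 CPM in the vector libraries (log2 fold change 3.06 ± 0.21, edgeR adjusted p = 0.000124). CEP295NL had 7.84, 16 and 6.01 CPM in the siRNA libraries, against 0.327 and 0.359 CPM in the vector libraries (log2 fold change 4.77 ± 0.52, edgeR adjusted p = 0.000671). LRRTM2 had 4.02, 17.1 and 4.37 CPM in the siRNA libraries, against 0.45 and 0.323 CPM in the vector libraries (log2 fold change 4.36 ± 0.78, edgeR adjusted p = 0.004), and ADAR siRNA 1 was the highest library for both. Hypoxia and glycolysis genes, a list that holds CA9, had 3 higher and 6 lower of 22, and integrated stress response genes 6 higher and 6 lower of 25. Protein-coding genes with a single exon block had 41 higher (15.9%) and 70 lower (27.1%) of 258 (median log2 fold change -0.25). These shares are near the 16.2% and 27.9% of all protein-coding genes outside the RNA classes.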

How the data were processed

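RNA sequencing of 14 libraries from 4 human lines was analysed from a deposited table. Per the submitters' processing notes, the authors' tools were featureCounts 2.0.6, STAR 2.7.11a and fastp 0.23.4, with genome build hg38. The strand setting and the treatment of reads with several matches are not given in the sources used here. The deposited values are unnormalized whole counts for each gene. Of 62702 lines 3 broken ones, all of ANK2, were not used, which left 62699 genes.

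In R 4.3.3, edgeR 4.0.16 compared 3 siRNA with 2 vector libraries (filterByExpr, TMM, robust quasi-likelihood fit, 3 residual degrees of freedom, Benjamini-Hochberg at 0.05 over 18039 genes). Intervals of ratios are exact at 95% and, like the floor of 3 counts, cover counting error only. The fit was run on simulated data with few changed genes, modest fold changes and a fixed spread. That setting does not cover large ratios or members at 0 counts, and its outcome is not given here. Named genes are, per class, the 6 members with the highest mean CPM and the 3 smallest p, and the 10 largest rises and falls at an average log2 CPM of at least 2 whose sets do not overlap. RNU5F-1, RNU4ATAC, H2AC6, H2BC5, H2BC18, MT-ND6, MT-ATP8 and the largest changes among protein-coding genes were named after their values were seen. Some genes and sequences picked by these rules are not reported here. Members and lists were chosen with earlier results of these data known. Biotypes come from GENCODE 29, which holds 92.8% of the identifiers. Alternatives were DESeq2 1.42.0, other scalings and filters, a fit of 14 libraries, the control libraries alone, and leaving out each library.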

Additional observations from a re-analysis of the deposited data

How the results depend on the processing

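No paired analysis was possible because the groups compared share fewer than 2 replicate numbers, and the labels give no link between an siRNA and a vector library. Of 130 named genes, 129 kept their direction and their side of the threshold with DESeq2, 127 with RLE scaling, 127 with library totals and 126 with scaling on protein-coding genes outside the classes, which gave 4775 higher and 3321 lower genes. With 1 vector library left out, 111 or 114 of the 130 did so. In the control libraries alone 79 did so, 45 lost their call and 6 changed sign.

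When each library was left out in turn, the number of genes higher ranged from 1646 to 5267 and of genes lower from 1926 to 5347. Members called higher ranged from 13 to 20 for H/ACA box snoRNAs, from 2 to 20 for cytosolic ribosomal proteins, from 8 to 26 for mitochondrial ribosomal proteins, from 11 to 28 for the nuclear respiratory chain and from 31 to 76 for ribosomal protein pseudogenes. Members called lower ranged from 5 to 10 for mitochondrial messages, from 6 to 14 for mitochondrial tRNAs, from 13 to 43 for cytosolic ribosomal proteins, from 9 to 25 for mitochondrial ribosomal proteins, from 15 to 33 for the nuclear respiratory chain and from 5 to 12 for snoRNA host genes. The log2 ratio of summed cytosolic ribosomal proteins, 0.01 with the 5 libraries, ranged from -0.13 to 0.13 and was -0.018 on TMM-scaled CPM.

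In the fit of 14 libraries 2254 genes were higher and 2641 lower, with 15 respiratory chain genes higher. Of the 4186 higher genes 2103 were protein-coding genes outside the classes, a count added after the data were seen. Requiring a mean CPM of at least 1 left 2 scaRNAs and 37 ribosomal protein pseudogenes higher and 7 mitochondrial tRNAs lower. Requiring only 1 count gave 171 such pseudogenes higher and 36 ribosomal proteins lower. The causes were not tested.

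The control siRNA library against the PCDH library alone, with fewer samples and the spread of the other groups assumed for both, gave 275 genes higher and 278 lower. Higher were 11 snRNAs, 5 C/D box and 7 H/ACA box snoRNAs, 2 scaRNAs, 5 cytosolic and 1 mitochondrial ribosomal proteins, 3 nuclear long noncoding RNAs, 10 ribosomal protein pseudogenes and 6 respiratory chain genes. Lower were 5 mitochondrial messages, 6 mitochondrial tRNAs, 1 cytosolic and 0 mitochondrial ribosomal proteins, 2 snoRNA hosts and 4 respiratory chain genes. The log2 ratios of summed levels were then 6.12 for snRNAs, 4.5 for C/D box snoRNAs, 6.30 for replication-dependent histones, -0.98 for mitochondrial messages, 0.28 for ribosomal proteins and -1.65 for cholesterol synthesis.

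The single genes that changed sign under an alternative were not called with the 5 libraries. RPL3, at -0.01, was 0.012 with RLE scaling and with DESeq2, 0.023 with library totals, 0.071 at a mean CPM of at least 1, 0.090 with protein-coding scaling and 0.15 in the controls alone. It ran from -0.11 to 0.16 when each library was left out. RN7SKP16 ran from -0.33 to 0.44 when each library was left out, and was -0.0030 in the fit of 14 and -0.074 in the controls alone. With a library left out NEAT1 ran from -0.31 to 0.78 and RPLP0 from -0.12 to 0.36, and NEAT1 was -0.77 in the controls alone. In the controls alone RPSAP52 was -0.011, MT-ND5 -0.22 and RPL6 0.046.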

Other observations

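Protein-coding genes outside the RNA classes parted by the exon length of the counted gene, as a description with no test. The median log2 fold change was -0.24 for the 3158 genes of 2000 to 4000 bases, of which 12.3% were higher and 31.2% lower. It was 0.21 for the 600 genes of at least 16000 bases, of which 30.7% were higher and 12.2% lower. Those 600 genes took 9.59%, 11% and 9.41% of the counts of these genes in the siRNA libraries, against 7.70% and 7.83% in the vector libraries, and at most 8.43% in the other lines. Genes with a GC share of at least 60% had a median of -0.40, with 8.12% higher and 38.6% lower.

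By chromosome, the medians of these genes ran from -0.31 on chromosome 18 to 0.11 on chromosome 13, and chromosome 5 had 25.3% of its genes higher and 19.1% lower.

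Of 9 tested epithelial and luminal markers, 3 were higher, 2 lower and 4 not called. The keratin KRT8 had 1219, 943 and 1182 CPM in the siRNA libraries, against 606 and 597 CPM in the vector libraries (log2 fold change 0.86 ± 0.17, edgeR adjusted p = 0.00609), and the keratins KRT18 and KRT19 were also higher. CLDN4, a tight junction protein, had 32, 20.02 and 20.6 CPM in the siRNA libraries, against 86.1 and 77 CPM in the vector libraries (log2 fold change -1.77 ± 0.23, edgeR adjusted p = 0.00135), and the receptor ERBB2 had 62.9, 64.8 and 60.3 CPM in the siRNA libraries, against 91.9 and 92.3 CPM in the vector libraries (log2 fold change -0.59 ± 0.11, edgeR adjusted p = 0.00404). EPCAM, GATA3, CLDN3 and ESR1 were not called. Of 10 markers of the line, 1 was higher, 4 lower and 5 not called. S100A4 had 109, 82.8 and 92.9 CPM in the siRNA libraries, against 305 and 311 CPM in the vector libraries (log2 fold change -1.73 ± 0.16, edgeR adjusted p = 0.0004), and TGFBI, CAV1 and LGALS1 were also lower. MSN, a linker of the cytoskeleton to the membrane, had 1678, 1762 and 1873 CPM in the siRNA libraries, against 1312 and 1281 CPM in the vector libraries (log2 fold change 0.41 ± 0.12, edgeR adjusted p = 0.026), and VIM, CD44, ANXA1, AXL and PLAU were not called.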
